A study of Bos taurus with 28 samples.

Results

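Transcript levels of 4 genes that the study placed in a hormone signalling pathway were examined in the anterior pituitary of heifer calves. The genes were the calcium channel genes CACNA1E (ENSBTAG00000020887) and CACNA1I (ENSBTAG00000045610), the G protein gene GNA15 (ENSBTAG00000019988) and the protein kinase C gene PRKCB (ENSBTAG00000020921). They were taken by identifier, as the receptor-to-kinase steps of gonadotrophin-releasing hormone (GnRH) signalling, and are 4 of the 27607 genes in the table. The study had already reported these genes as higher on the richer diet in the same calves. Their direction below is therefore no independent evidence. PRL, the gene of prolactin, and FSHB, the beta chain of follicle-stimulating hormone, are given as context. All 4 genes had higher mean levels on the richer diet. CACNA1I, GNA15 and PRKCB passed the test between diets, and CACNA1E did not (limma adjusted p = 0.0510).

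GnRH reaches the gonadotroph through a receptor that couples to G proteins of the Gq family. The activated alpha subunit switches on phospholipase C, whose products release calcium from stores and, together with calcium, activate the conventional forms of protein kinase C. Calcium also enters through voltage-gated channels when the cell fires, and its entry drives hormone release in gonadotrophs and in the other endocrine cells of the gland. CACNA1E encodes the pore of the R-type channel and CACNA1I the pore of a T-type channel, which opens at low voltage. GNA15 is a Gq family alpha subunit best known from blood cells, and PRKCB is a conventional protein kinase C that is found in many tissues, blood cells and neurons among them.

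The calves were Angus × Holstein-Friesian heifers, killed at 21 weeks of age after a calf phase of 8 weeks and a post-weaning phase of 11 weeks. The HI calves (n = 13) had 1.5 kg of milk replacer in 10 l daily with concentrates freely on offer in both phases, for a target gain above 1.2 kg a day. The MOD calves (n = 15) had 0.5 kg of replacer in 4 l daily and a restricted allowance of concentrates, for a target gain of 0.5 kg a day, and both groups were tapered off milk before weaning and had hay freely after it. The labels give these unequal numbers, where the study describes groups of equal size, and they name neither a batch nor a shared sire or farm. Calves are named here by diet and calf number.

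Values are TMM-scaled CPM, that is, read counts brought to a common library size, and 1 read was worth 0.0482 to 0.0830 CPM. Reads on genes ran from 12928932 to 18217216 in HI calves (median 15822757) and from 12669266 to 18196391 in MOD calves (median 15923476). PRL, which marks lactotrophs, ran from 32023 to 267896 CPM and FSHB from 271 to 3289 CPM, so both hormone cell types were represented in every calf. The samples are whole tissue, in which fewer cells of a type and less RNA per cell cannot be told apart. Gene length was not taken into account, so CPM is compared between calves and not between genes. RefSeq lists 2 long noncoding RNAs that overlap CACNA1E, 1 such RNA and 2 transfer RNAs that overlap PRKCB, 1 transfer RNA that overlaps GNA15 and 0 genes that overlap CACNA1I. Whether reads were counted by strand is not stated in the sources used here, so reads of such partners cannot be told apart from those of the 3 genes concerned.

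The G protein gene GNA15 was measured in HI calves at 1.27 CPM at the lowest, 2.16 at the median and 4.60 at the highest. In MOD calves the lowest, median and highest values were 0.830, 1.35 and 1.99 CPM. Of the 13 HI calves, 7 lay above every MOD calf, and 6 of the 15 MOD calves lay below every HI calf, while no MOD calf reached the HI median. HI calves averaged 2.45 ± 0.975 CPM (SD, n = 13), 1.81 times the MOD average of 1.35 ± 0.344 CPM (SD, n = 15). On the log2(CPM + 0.5) scale, where fold changes of low genes come out smaller, GNA15 was higher in HI by 0.63 (SE 0.14, 95% interval 0.34 to 0.91, limma adjusted p = 0.00974). The highest value belonged to HI 2528, and without this calf the difference was 0.56, below the 1.5-fold threshold, at an adjusted p of 0.0167.

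The T-type channel gene CACNA1I had the widest gap between diets of the 4. HI calves held 2.22 CPM at the lowest, 5.65 at the median and 11.7 at the highest, and MOD calves 0.923, 2.59 and 3.83 CPM. In all, 10 HI calves lay above every MOD calf and 7 MOD calves below every HI calf. The HI average of 5.48 ± 2.35 CPM (SD, n = 13) was 2.16 times the MOD average of 2.54 ± 0.911 CPM (SD, n = 15). The log2 difference of 0.95 (SE 0.19, 95% interval 0.57 to 1.33, limma adjusted p = 0.00365) placed CACNA1I at rank 45 of the 14939 tested genes by size. It was called under each of the 10 other settings tried and with each of the 28 calves left out.

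The R-type channel gene CACNA1E was read at low depth, with 10 to 67 reads per HI calf and 6 to 29 per MOD calf. HI calves ran from 0.725 through a median of 1.84 to 4.65 CPM, and MOD calves from 0.398 through 0.846 to 2.03 CPM. The diets overlapped more than for the other genes: 5 HI calves lay above every MOD calf, and 2 MOD calves lay above the HI median. The HI average was 1.96 ± 0.944 CPM (SD, n = 13), the MOD average 1.10 ± 0.558 CPM (SD, n = 15) and their ratio 1.79. The log2 difference of 0.63 (SE 0.18, 95% interval 0.25 to 1.00) was of the size seen for GNA15, but the limma adjusted p was 0.0510 and the gene was not called. Its call turned on the method, since the edgeR exact test on the recovered reads gave 0.84 with an adjusted p of 0.0265 and the edgeR quasi-likelihood test gave 0.84 with an adjusted p of 0.0532. Leaving out HI 2570, the HI calf with the lowest level, gave 0.70 with an adjusted p of 0.0257. The call was also gained without HI 553 (0.65), MOD 975 (0.66), MOD 981 (0.66), MOD 1057 (0.66), MOD 1082 (0.68), MOD 2537 (0.65) or MOD 3622 (0.68). Without HI 2535, the calf with the highest level, the difference fell to 0.53 (limma adjusted p = 0.0849), below the 1.5-fold threshold. It was the lowest value of the 28 fits that each leave out 1 calf.

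The kinase gene PRKCB had the best depth of the 4, with 152 to 522 reads per calf. HI calves ran from 11.9 through a median of 18.8 to 28.5 CPM, and MOD calves from 9.19 through 12.6 to 16.6 CPM. Above every MOD calf lay 9 HI calves, and 5 MOD calves lay below every HI calf. On average HI calves held 20.1 ± 5.57 CPM (SD, n = 13), which was 1.58 times the 12.7 ± 2.12 CPM of MOD calves (SD, n = 15). The log2 difference was 0.61 (SE 0.12, 95% interval 0.38 to 0.85, limma adjusted p = 0.00282). Its p-value ranked 49th of the 14939, ahead of CACNA1I at 66, GNA15 at 131 and CACNA1E at 515, while its size lay close to the 1.5-fold threshold of 0.58 on the log2 scale. Without HI 1531 (0.57), HI 2120 (0.57), HI 2528 (0.57) or MOD 1689 (0.58) the difference dropped below that threshold, with adjusted p-values of 0.00526, 0.00635, 0.00567 and 0.00499.

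**Figure D1:**
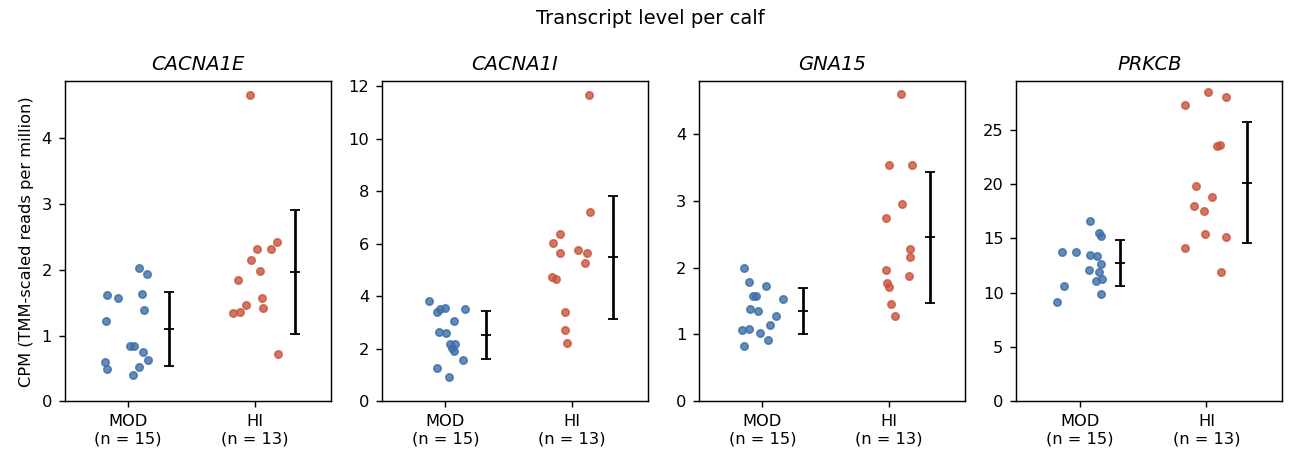
Level of each gene in every calf, in CPM on a linear axis that starts at 0, with MOD calves in blue (n = 15) and HI calves in red (n = 13); the bar beside each group is the mean ± SD. For CACNA1I 10 HI calves sit above the highest MOD calf at 3.83 CPM, and for CACNA1E 5 sit above the highest MOD calf at 2.03 CPM.

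Across the table, 61 of 14939 tested genes (0.408%) were called higher in HI at an adjusted p below 0.05 and a fold change above 1.5, and 3 of the 4 genes were among them. By adjusted p alone, 272 genes (1.82%) were higher in HI, and the same 3 genes were among these. The quasi-likelihood test called 87 genes (0.582%) higher in HI and the same 3 of the 4, and the exact test called 103 (0.689%) and all 4. The genes are ones the study itself selected for a difference in these calves, so these counts are no independent evidence of their direction. The median log2 difference over all tested genes was -0.01, against 0.61 to 0.95 for the 4 genes.

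**Figure D2:**
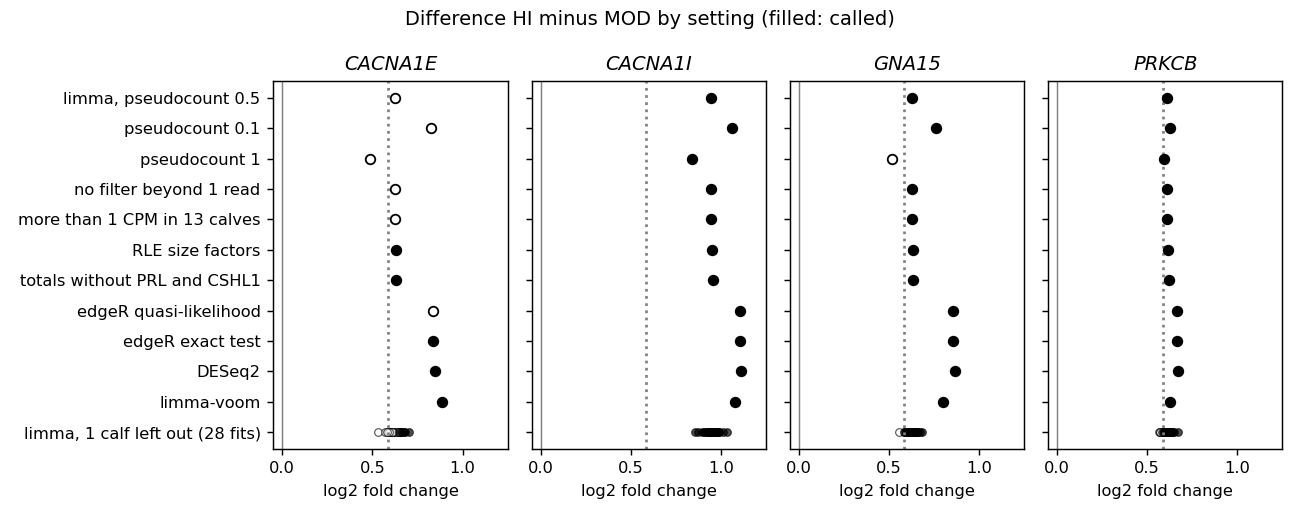
Difference between diets (HI minus MOD, log2 scale) for each gene under the main limma setting, 10 other settings and 28 fits that each leave out 1 calf; filled circles were called, open circles were not, and the dotted line marks a 1.5-fold change. CACNA1I is filled throughout, while CACNA1E is filled in 5 of the 10 other settings and in 8 of the 28 fits.

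The calves that stood high or low differed from gene to gene. In each gene 12 of the 13 HI calves lay above the MOD median, and the exception was a different calf each time: HI 2570 for CACNA1E, HI 986 for CACNA1I, HI 1388 for GNA15 and HI 553 for PRKCB. Of the HI calves, 9 were above the MOD median in all 4 genes and the other 4 in 3. Of the MOD calves, 3 were above their own median in 3 genes, 8 in 2, 3 in 1 and 1 in 0. HI 1050 and HI 2535 exceeded every MOD calf in all 4 genes, and HI 553 did so in 0. HI 553 also had the highest FSHB level of the HI calves, 2949 CPM against an HI median of 429 CPM. HI 2528 was the highest of all calves for CACNA1I and GNA15, HI 2535 for CACNA1E (4.65 CPM) and HI 1531 for PRKCB (28.5 CPM).

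GNA15 and PRKCB had a larger spread among HI calves than among MOD calves. The SD of log2(CPM + 0.5) was 0.45 in HI and 0.27 in MOD for GNA15, a ratio of 1.68 that exceeded the ratio of 90.7% of tested genes. For PRKCB the SDs were 0.40 and 0.23, a ratio of 1.69 above that of 91.0% of tested genes. The 2 channel genes had no such inequality, with SDs of 0.55 and 0.48 for CACNA1I (ratio 1.16) and of 0.49 and 0.51 for CACNA1E (ratio 0.959), beside a median ratio of 1.04 over all tested genes. These ratios are a description and were not tested.

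Counting error set a floor under this spread, and the floor was highest where reads were few. In MOD calves the mean of 21.8 reads for GNA15 gave a coefficient of variation of 21.6% from counting alone, against 25.5% observed, so that counting amounted to 71.7% of the variance. In HI calves counting amounted to 16.6% of the variance of GNA15. For CACNA1E the counting share was 14.3% in HI and 22.5% in MOD, for CACNA1I 6.44% and 19.4%, and for PRKCB 4.27% and 17.8%. Most of the spread of the channel genes and of PRKCB thus lay between calves and not in the read counts. None of the 4 genes followed sequencing depth closely within a diet, with Pearson r against log2 reads between -0.15 and 0.26.

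The genes were next related to each other and to PRL and FSHB among calves of the same diet, to ask whether they varied together once diet was held fixed. In all, 40 relations were computed on the log2 scale, tested by permutation and adjusted together. Among HI calves PRL fell into 2 clusters, 6 calves from 70067 to 118463 CPM and 7 from 191905 to 267896 CPM, so relations with PRL are given within each. No pair of the 4 genes passed the adjustment. The pairs with the highest r were both in HI calves, CACNA1E with GNA15 at r = 0.65 and rho = 0.70 (permutation p = 0.0140, adjusted 0.208; for rho adjusted 0.136), and CACNA1I with PRKCB at r = 0.61 and rho = 0.51 (permutation p = 0.0260, adjusted 0.208; for rho adjusted 0.417). Without the 2 calves farthest from the median of the first gene these values were 0.55 and 0.50. In MOD calves r for the same pairs was -0.36 and -0.08, and the differences between diets were not tested.

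GNA15 and PRL ran in opposite directions among MOD calves. MOD 1392 had the lowest PRL of all calves, 32023 CPM, with the highest GNA15 of its diet, 1.99 CPM, and MOD 2551 had the highest PRL of its diet, 145610 CPM, with the lowest GNA15, 0.830 CPM. Over the 15 MOD calves r was -0.80 (permutation p = 0.00012, adjusted 0.00480) and rho was -0.80 (permutation p = 0.00066, adjusted 0.0264), and this was the only 1 of the 40 relations to pass. GNA15 rested on 10 to 30 reads in each of these calves, and counting amounted to 71.7% of its variance there; its part in the size of r was not tested. Without these 2 calves, the farthest from the PRL median, r was -0.63 (permutation p = 0.0191), and with each MOD calf left out in turn it lay between -0.84 and -0.73. The CPM are divided by TMM-adjusted library sizes and not by plain read totals. With plain library totals that leave out PRL and CSHL1 (a growth hormone family gene read at a very high level) r was -0.77 (permutation, adjusted p = 0.0216). In the HI calves r between PRL and GNA15 was 0.08 in the lower PRL cluster (n = 6, exact permutation p = 0.885) and -0.10 in the upper (n = 7, exact permutation p = 0.839). With so few calves these values do not show that the relation is absent in HI calves, and no r over all HI calves is given because of the clusters. The difference between diets was not tested. GNA15 and PRL were both higher in HI than in MOD, PRL by 1.01 (SE 0.22, limma adjusted p = 0.00815), so within MOD the pair ran against the direction of the diet difference.

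**Figure D3:**
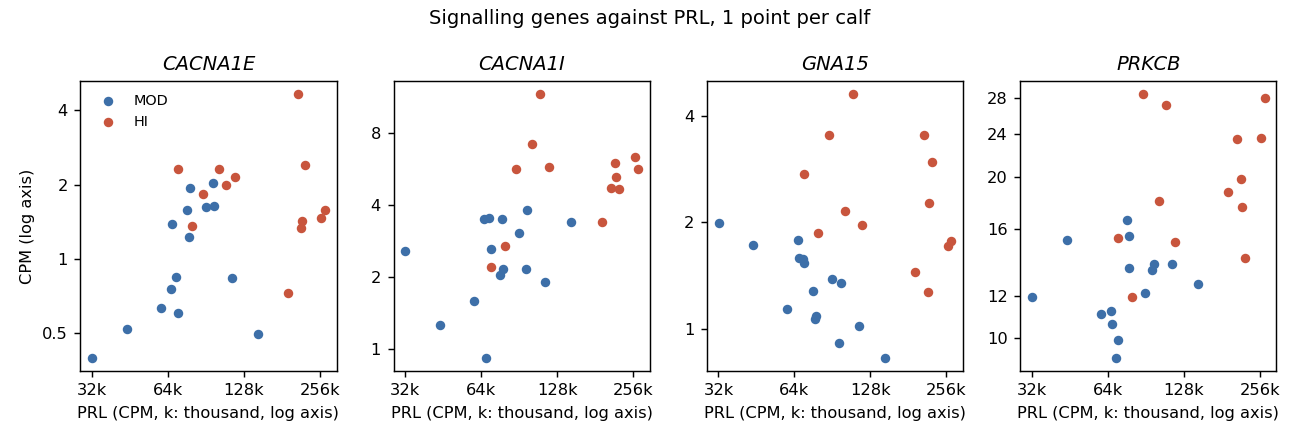
Level of each gene in CPM against PRL in CPM, both on log axes, with 1 point per calf (MOD blue, HI red). In the GNA15 panel the MOD points fall from 1.99 CPM at the lowest PRL to 0.830 CPM at the highest, and the HI points fall into 2 PRL clusters.

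CACNA1I and PRL gave a high positive r in both HI clusters, but neither passed the adjustment. In the lower cluster r was 0.83 and rho 0.83 (n = 6, exact permutation p = 0.0444, adjusted 0.253), and in the upper cluster r was 0.75 and rho 0.57 (n = 7, exact permutation p = 0.0506, adjusted 0.253). In MOD calves r was 0.32 (permutation, adjusted p = 0.666). PRKCB and FSHB did not pass the adjustment in HI calves, with r = -0.57 and rho = -0.62 (permutation p = 0.0357, adjusted 0.238) and an r of -0.27 without the 2 calves farthest from the FSHB median. In MOD calves r was 0.09 and rho 0.11. FSHB itself was lower in HI by 1.27 on the log2 scale (-1.27, SE 0.34, limma adjusted p = 0.0316). This call was kept in 21 of the 28 fits with 1 calf left out and was lost by the quasi-likelihood test (adjusted p = 0.0710). The FSHB median of 429 CPM in HI compared with 1478 CPM in MOD, and 14 of the 15 MOD calves lay above the HI median.

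Since GNA15 and PRKCB are known from blood cells, the markers of these cells are given beside them. For this and every list below, symbols could be matched to identifiers only for genes that the study had selected for a difference in these calves, so the share of a list that was called is no independent evidence and its other genes are not analysed here. Of the 12 markers listed, 3 had an identifier: CD79B, a B cell receptor chain, CX3CR1, the fractalkine receptor of monocytes and microglia, and TIMD4, a receptor of tissue macrophages. Their summed level was 23.8 to 113 CPM in HI and 17.3 to 68.2 CPM in MOD calves, and none was at 0 in any calf. CD79B was lower in HI (0.888 against 1.67 CPM, log2 difference -0.65, limma adjusted p = 0.0131), in the opposite direction to GNA15 and PRKCB. It was no longer called without MOD 2551 (-0.58) or at a pseudocount of 1 (-0.50). CX3CR1 (55.7 against 36.3 CPM, 0.63, adjusted p = 0.105) and TIMD4 (6.12 against 3.28 CPM, 0.77, adjusted p = 0.0544) did not pass. TIMD4, with its higher mean in HI like GNA15 and PRKCB, was called under 4 of the 10 other settings, among them the quasi-likelihood test (0.91, adjusted p = 0.0412) and the exact test (0.90, adjusted p = 0.0181).

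GNA15 and CX3CR1 gave a positive r within both diets that did not pass the adjustment. In HI calves r was 0.61 and rho 0.71 (permutation p = 0.0235, adjusted 0.208), and in MOD calves r was 0.59 and rho 0.62 (permutation p = 0.0220, adjusted 0.208). Without the 2 calves farthest from the CX3CR1 median r was 0.50 and 0.42. GNA15 against CD79B gave 0.29 in HI and -0.02 in MOD, PRKCB against CD79B 0.25 and -0.07, and PRKCB against CX3CR1 0.22 and -0.16. The part of blood and immune cells in the diet difference of GNA15 was not tested.

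Markers of the hormone cells themselves also differed between the diets. Of the 12 listed, 5 had an identifier, and none of them was at 0 in any calf. Beside PRL, the dopamine receptor gene DRD2, which lactotrophs carry, was higher in HI (408 against 206 CPM, 0.94, limma adjusted p = 0.000453). CSHL1 was lower (85822 against 138311 CPM, -0.70, adjusted p = 0.00719), as was FSHB. GHRHR, the somatotroph receptor of growth hormone-releasing hormone, was at 278 against 424 CPM and passed on p but not on fold (-0.57, adjusted p = 0.00815), and it was called under 3 of the 10 other settings. The summed level of the 5 was 135696 to 378906 CPM in HI and 170477 to 421414 CPM in MOD calves. The part of a changed share of hormone cell types in the differences of the 4 genes was not tested.

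Of the 8 muscle and vessel wall markers listed, 4 had an identifier, and their summed level was 23.8 to 84.2 CPM in HI and 31.5 to 150 CPM in MOD calves, with none at 0. The myosin gene MYH6 was higher in HI (14.7 against 7.08 CPM, 0.96, limma adjusted p = 0.0135). MYH4 (0.95, adjusted p = 0.0773), the actin-binding LMOD1 (-0.51, adjusted p = 0.131) and ACTA2 (-0.69, adjusted p = 0.128) did not pass with limma. MYH4 and LMOD1 were each called under 2 of the 10 other settings.

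Each gene was then set beside the other genes that had a symbol, 158 in all, by the correlation of log2 levels over the 28 calves after the mean of each diet was subtracted. These values describe likeness only, and all points share the same libraries. CACNA1I was followed most closely by KLHL1, an actin-binding kelch-like protein of neurons, with r = 0.82 (0.86 in HI, 0.78 in MOD), the highest of all 14938 other tested genes. KLHL1 was also higher in HI, at 14.1 against 7.80 CPM (0.81, limma adjusted p = 0.00650). DIRAS2, a small GTPase, followed CACNA1I with r = 0.59 and CPT1B, the muscle form of the enzyme that admits fatty acids to mitochondria, with r = 0.58. SOST, a secreted inhibitor of Wnt signalling, ran most nearly opposite among the named genes at -0.60, and 13 tested genes lay lower. KLHL1 is 1 of the 4 neural and glial markers with an identifier (of 8 listed), with OMG, PCP4 and SEZ6. All 4, which the study had selected for such a difference, were called higher in HI (0.408% of all tested genes were), OMG no longer without HI 1388 (0.64), HI 2528 (0.59) or MOD 911 (0.58) or at a pseudocount of 1 (0.52), and their summed level was 192 to 400 CPM in HI and 144 to 260 CPM in MOD calves. The part of neural tissue in the difference of CACNA1I was not tested.

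The closest named genes of GNA15 were CX3CR1 (r = 0.58), the glutamate receptor subunit GRIA3 (0.49) and BMPER, a secreted regulator of bone morphogenetic proteins (0.43). Closer to GNA15 than these lay 44, 169 and 366 tested genes. CLEC2L, a C-type lectin-like protein, ran opposite to GNA15 with r = -0.65 (-0.58 in HI, -0.80 in MOD), and only 3 tested genes lay lower. PRKCB was nearest, among the named genes, to LAMP3, a lysosomal membrane protein (r = 0.58), B3GALT2, a galactosyltransferase (0.51), and ASIC4, of the acid-sensing channel family (0.50). Closer to PRKCB than these lay 10, 60 and 66 tested genes. These 3 followed PRKCB mainly in HI calves, with r of 0.81, 0.67 and 0.79, against 0.23, 0.19 and -0.18 in MOD, and the differences were not tested. The zinc finger gene ZNF750 ran opposite to PRKCB at -0.55. CACNA1E had no close neighbour among the named genes: its nearest were the smooth muscle actin ACTA2 (0.43), the matrix protein SPON1 (0.39) and RGS1 (0.37), and 238, 420 and 542 tested genes lay closer to CACNA1E than these. CALCB, of the calcitonin gene-related peptides, ran most nearly opposite among the named genes at -0.40, and 445 tested genes lay lower.

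**Figure D4:**
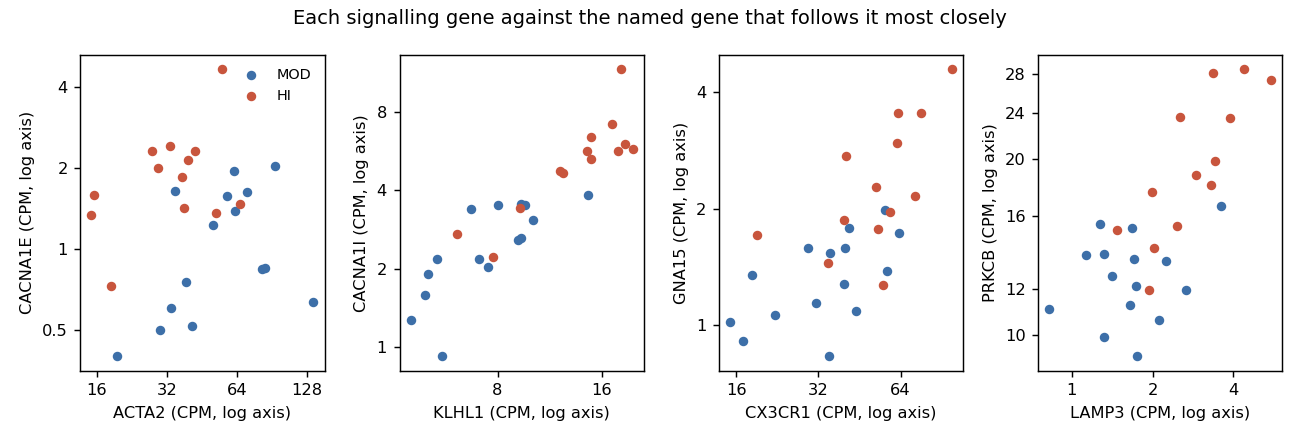
Each of the 4 genes against the gene with a symbol whose level followed it most closely after the mean of each diet was subtracted, in CPM on log axes with 1 point per calf (MOD blue, HI red). CACNA1I and KLHL1 lie along 1 band in both diets (r = 0.82), while CACNA1E and ACTA2 scatter widely (r = 0.43).

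The rest of the pathway was read from lists ordered from receptor to target. Over all tested genes 0.408% were called higher and 0.428% lower in HI. Of the 17 receptor, Gq and phospholipase C genes listed, 5 had an identifier, of which 2 were called higher, 2 lower and 1 not at all, with a median log2 difference of 0.63.

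Receptors moved in both directions. CASR, the calcium-sensing receptor, which couples to Gq, was higher in HI at 30.4 against 10.0 CPM (1.33, limma adjusted p = 0.0467), with HI calves from 6.21 to 86.4 CPM. GRPR, the Gq-coupled receptor of gastrin-releasing peptide, was lower in HI at 0.966 against 3.14 CPM (-1.25, adjusted p = 0.00126). RGS1, which speeds the switching off of G protein alpha subunits, was lower at 3.12 against 7.15 CPM (-1.09, adjusted p = 0.0479). The phospholipase C gene PLCH2, at 2.85 against 1.01 CPM, did not pass (0.86, adjusted p = 0.159), but was called by the exact test (1.48, adjusted p = 0.0318) and DESeq2 (1.49, adjusted p = 0.0223). The calls of CASR and RGS1 were fragile, being kept in 11 and 8 of the 28 fits with 1 calf left out and under 8 and 6 of the 10 other settings, whereas that of GRPR was kept in all 28 and all 10.

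Of the 32 calcium channel and calcium handling genes listed, 9 had an identifier. Of these, 3 were called higher, 2 lower and 4 not at all, with a median log2 difference of 0.58. Beside CACNA1I, the 2 called higher were ATP2B2, a calcium pump of the plasma membrane (147 against 92.7 CPM, 0.63, limma adjusted p = 0.00185), and PCP4, a small regulator of calmodulin (13.4 against 6.77 CPM, 0.88, adjusted p = 0.0105). ATP2B2 dropped below the fold threshold without HI 2535 (0.57). The 2 called lower were RRAD, a GTPase that restrains voltage-gated calcium channels (0.784 against 2.25 CPM, -0.96, adjusted p = 0.0107), and KCNMB2, a regulatory subunit of calcium-activated potassium channels (4.89 against 9.81 CPM, -0.91, adjusted p = 0.00489). Beside CACNA1E, those not called were the diacylglycerol-sensitive channel TRPC6 (0.58, adjusted p = 0.112), the calmodulin-dependent kinase CAMK1D (0.58, adjusted p = 0.0340) and RIMS1, a scaffold of release sites (-0.57, adjusted p = 0.0225). The last 2 passed on p but not on fold, and each was called under 5 of the 10 other settings. TRPC6 was called under 3, with 0.94 by the quasi-likelihood test (adjusted p = 0.0437). Of the 9 protein kinase C genes listed, PRKCB alone had an identifier.

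The transcription targets and feedback genes of the pathway had lower means in HI. Of 8 listed, 6 had an identifier. All 6 had lower mean log2 levels in HI, with a median difference of -1.23, while 48.3% of all tested genes had higher ones. Among the 6, 3 were called. EGR1, an immediate early transcription factor that GnRH is known to induce, stood at 96.0 against 276 CPM (-1.64, limma adjusted p = 0.0302), and RASD1, a small G protein of the Ras family, at 66.0 against 153 CPM (-1.19, adjusted p = 0.00185). The third was FSHB, which was kept in 21 of the 28 fits with 1 calf left out and was not called by the quasi-likelihood test (-1.14, adjusted p = 0.0710). EGR1 was no longer called without HI 1089 (-1.49, adjusted p = 0.0546) or HI 1388 (-1.57, adjusted p = 0.0508). The immediate early genes FOSB (-1.54, adjusted p = 0.0551), JUNB (26.2 against 62.6 CPM, adjusted p = 0.0814) and ATF3 (-0.85, adjusted p = 0.153) did not pass with limma. On recovered reads FOSB was called lower by the quasi-likelihood test (-2.36, adjusted p = 0.0174), the exact test and DESeq2, as was JUNB (-1.25 by the quasi-likelihood test, adjusted p = 0.0414), but neither by voom (adjusted p = 0.137 and 0.121). ATF3 was called by the exact test (-1.48, adjusted p = 0.0184) and under none of the other 9 settings. So in the study's own list of 7 GnRH signalling genes, the channel, G protein and kinase genes had higher means in HI (3 of 4 called) and EGR1, RASD1 and FSHB were lower (3 of 3 called by limma, 2 of 3 by the quasi-likelihood test).

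**Figure D5:**
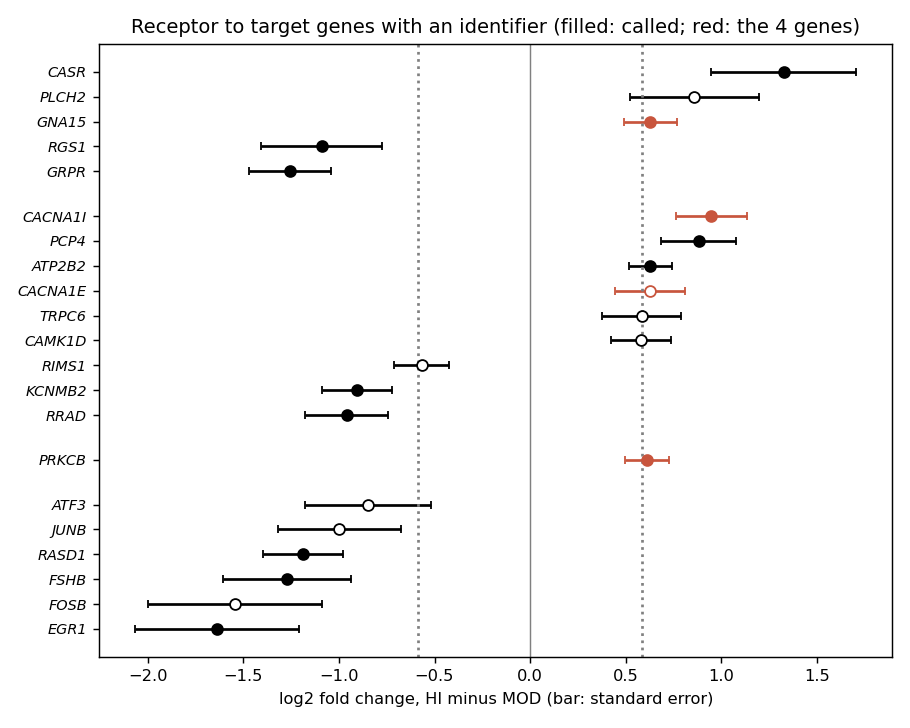
Log2 difference between diets (HI minus MOD) with its standard error for the listed genes with an identifier, in blocks from the top: receptors, G protein and phospholipase C; calcium channels and handling; protein kinase C; transcription targets. Filled points were called, the 4 genes described here are red, and dotted lines mark a 1.5-fold change; the 6 points of the lowest block all lie to the left of 0.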

How the data were processed

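RNA of the anterior pituitary was extracted and polyadenylated transcripts were sequenced with a stranded kit on 28 calves. The authors removed adapters with cutadapt, used STAR for alignment to ARS-UCD1.2 and for gene counts; tool versions differ between the submitters' processing notes and the study's methods. The deposited values are a normalized signal: read counts that the authors turned into CPM on TMM-adjusted library sizes. Division by the CPM of 1 read gave back the reads, and 100% of positive values came out whole within 0.01 read. No library was a copy of another, as the most alike calves differed with a chi-square per gene of 12.7.

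The main test was limma 3.58.1 (trended, robust) in R 4.3.3 on log2(CPM + 0.5) over the 14939 genes kept by filterByExpr, with Benjamini-Hochberg adjustment over all of them, and genes were called at an adjusted p below 0.05 and a fold change above 1.5, as the study did with edgeR. The edgeR 4.0.16, DESeq2 1.42.0 and voom fits on recovered reads called 150 to 212 genes. Correlations were tested with 100000 permutations, or exactly for 6 and 7 calves. Clusters were set apart where the widest gap between calves exceeded a set share of their range with at least 4 calves on each side, a rule chosen with the PRL values known. Scripts were tested on simulated data. Symbols came from the study's supplementary gene table. Named were the 4 genes, PRL, FSHB, the listed genes with an identifier, and for each gene the 3 closest and the most opposite gene with a symbol. The 4 genes and all lists were chosen with earlier results of these data known. Calves were the replicates, and p-values measure the spread between them; the study's blocking of calves is not in the labels and was not modelled. Counting errors cover counting only. No sequence or genome position is given, as no sequence file was used here.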

Additional observations from a re-analysis of the deposited data

How the results depend on the processing

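Against 10 other settings, fixed with earlier results known, the differences of the 4 genes kept their direction throughout. CACNA1I and PRKCB were called under all 10 (0.84 to 1.11 and 0.59 to 0.67 on the log2 scale). GNA15 was called under 9, with 0.52 at a pseudocount of 1 (adjusted p = 0.0101). CACNA1E became called with RLE size factors (0.63, adjusted p = 0.0496), with totals without PRL and CSHL1 (0.63, adjusted p = 0.0480), by the edgeR exact test (0.84), by DESeq2 (0.84, adjusted p = 0.0261) and by voom (0.89, adjusted p = 0.0390). The number of genes called, 125, became 212 by the exact test and 211 by DESeq2. With each calf left out in turn, CACNA1E lay between 0.53 and 0.70, CACNA1I between 0.85 and 1.03, GNA15 between 0.56 and 0.68, PRKCB between 0.57 and 0.67 and the number called between 100 and 170. The cause of these changes was not tested. Of the other 31 listed genes 18 were called, 11 of them in every fit and 7 with a call lost in at least 1; FSHB was called in 21 of 28 fits with a calf left out. PRL and GNA15 in MOD calves was the single relation past the adjustment at pseudocounts of 0.1 and 1 and with totals without PRL and CSHL1; 1 of 40 changed sign at a pseudocount of 1 and 1 of 40 with those totals. Without the 2 farthest calves 9 of 32 relations changed sign, none of those that changed having been called. In the same 32, 3 gained an unadjusted p below 0.05 by permutation: PRL with CACNA1E in MOD (r = 0.59, p = 0.0312), FSHB with CACNA1I in MOD (r = -0.62, p = 0.0237) and FSHB with CACNA1E in HI (r = 0.59, p = 0.0476). A further 5 lost it: in HI calves CACNA1E with GNA15 (p = 0.0775), CACNA1I with PRKCB (p = 0.119), FSHB with PRKCB (p = 0.413) and CX3CR1 with GNA15 (p = 0.118), and in MOD calves CX3CR1 with GNA15 (p = 0.150), all by permutation. Added after the data were seen were 2 alternatives, relations without PRL and CSHL1 in the totals, and PRL with GNA15 without each MOD calf. Reads were fewest for CACNA1E (6 to 67 per calf) and GNA15 (10 to 88).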
